A study of Rattus norvegicus with 9 samples.

Results

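The genes described here are 38 genes of amino acid supply and use, many of which respond elsewhere to the transcription factor ATF4. They comprise ATF4 itself and its stress effectors, enzymes of amino acid and serine synthesis, one-carbon enzymes, amino acid transporters and cytosolic aminoacyl-tRNA synthetases. They were taken from a list of symbols, with no threshold on their values. The list was chosen with earlier results of these data known, so its shares beside those of all genes are descriptive. All 38 had a row among the 17327 rows of the read count table, and all 38 passed the filter on low counts that left 11873 genes. The samples were primary ventricular cardiomyocytes of newborn rats, in culture, profiled by RNA sequencing. One group received vehicle, another 50 µM phenylephrine, an agonist of alpha1-adrenergic receptors, and another 10 nM IGF1, insulin-like growth factor 1. Treatment lasted 48 hours and each group had 3 samples. The rat strain, the purity of the cells and whether replicates were grown apart are not given in the sources used here. P-values therefore measure the spread between replicates that may be technical.

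ATF4 is made mainly under translational control: when the initiation factor eIF2 is phosphorylated by a stress kinase, most translation falls while that of ATF4 mRNA rises, and growth signals through mTORC1 can raise it too. ATF4 then binds DNA together with C/EBP family proteins and turns on genes that make, import and load amino acids. In cardiac growth, these genes supply the building blocks for new protein. Ddit3, which encodes CHOP, and Trib3 belong to the branch of the response tied to lasting stress.

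Total counts ran from 31274396 to 48505265 per sample. They were 31274396 to 33607863 with phenylephrine and 31987197 in IGF1 replicate 1. Vehicle samples and IGF1 replicates 2 and 3 had 38659775 to 48505265. Levels are CPM, counts scaled to a common library size with normalization factors, and 1 CPM rested on 29.1 to 51.6 reads. The factors were 0.930625 to 0.935553 with phenylephrine, 0.949932 in IGF1 replicate 1 and 1.03259 to 1.07746 in the remaining samples. Whether depth bears on the levels of IGF1 replicate 1 was not tested. IGF1 replicate 1 stood apart from the other IGF1 samples: of 9301 genes at 5 CPM or more, 206 to 230 were over 1.5-fold apart between replicate 1 and another IGF1 sample, and 2 to 24 in the remaining pairs of replicates. Of the 38 genes, it lay outside the range of IGF1 replicates 2 and 3 in 35. Counted again over all 38, it differed from their mean towards the phenylephrine samples in 32, and by over 1.5-fold in 6. Any 1 of 3 samples often lies outside the other 2, and these counts were not made over all genes. Because replicate 1 stood apart, counts and calls that involve IGF1 are given with and without it. Its values also widen the spread used to test phenylephrine against vehicle. Since it was singled out for standing apart, the spread without it may be too narrow, and adjusted p-values of that fit too small. The cardiomyocyte markers Tnnt2, Tnni3, Actn2, Myh6, Ryr2 and Pln summed to 18635 to 20095 CPM with vehicle, 21448 to 21967 with phenylephrine and 22790.1 to 25174 with IGF1. The single markers went different ways. With phenylephrine, Tnnt2, Actn2 and Myh6 lay above every vehicle sample, and Tnni3, Ryr2 and Pln below. With IGF1, Tnnt2, Tnni3 and Myh6 lay above, Pln below, and Actn2 and Ryr2 overlapped with vehicle. Fibroblast markers summed to 3700 to 4459 CPM with vehicle, 3608 to 3677 with phenylephrine and 3971 to 4526 with IGF1. With phenylephrine, Col1a1, Postn and Pdgfra lay below every vehicle sample and Dcn above. With IGF1, Postn (749 to 792 CPM, against 417 to 503 with vehicle) and Lum lay above and Pdgfra below. Smooth muscle markers summed to 1736 to 1826 CPM with vehicle, 2468 to 2517 with phenylephrine and 1524 to 2056 with IGF1, where replicate 1 was the highest. Within the phenylephrine sum, Acta2, Cnn1 and Tagln lay above every vehicle sample. Myh11 lay below (116 to 121 CPM, against 142 to 148 with vehicle), and Pdgfrb and Rgs5 overlapped. Endothelial markers summed to 60.1 to 69.3, 41.5 to 51.3 and 20.0 to 27.2 CPM in the same order, mostly from Kdr and Tek. Kdr, Tek and Pecam1 lay below every vehicle sample in both treated groups, and Vwf, under 1 CPM, above. Cdh5 lay below with IGF1 and overlapped with phenylephrine, and Emcn overlapped in both. No defining marker with a row was at 0 in every sample, and the part of other cell types in the results was not tested. In these bulk samples, fewer cells of a type and less RNA of a marker per cell cannot be told apart.

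**Figure D1:**
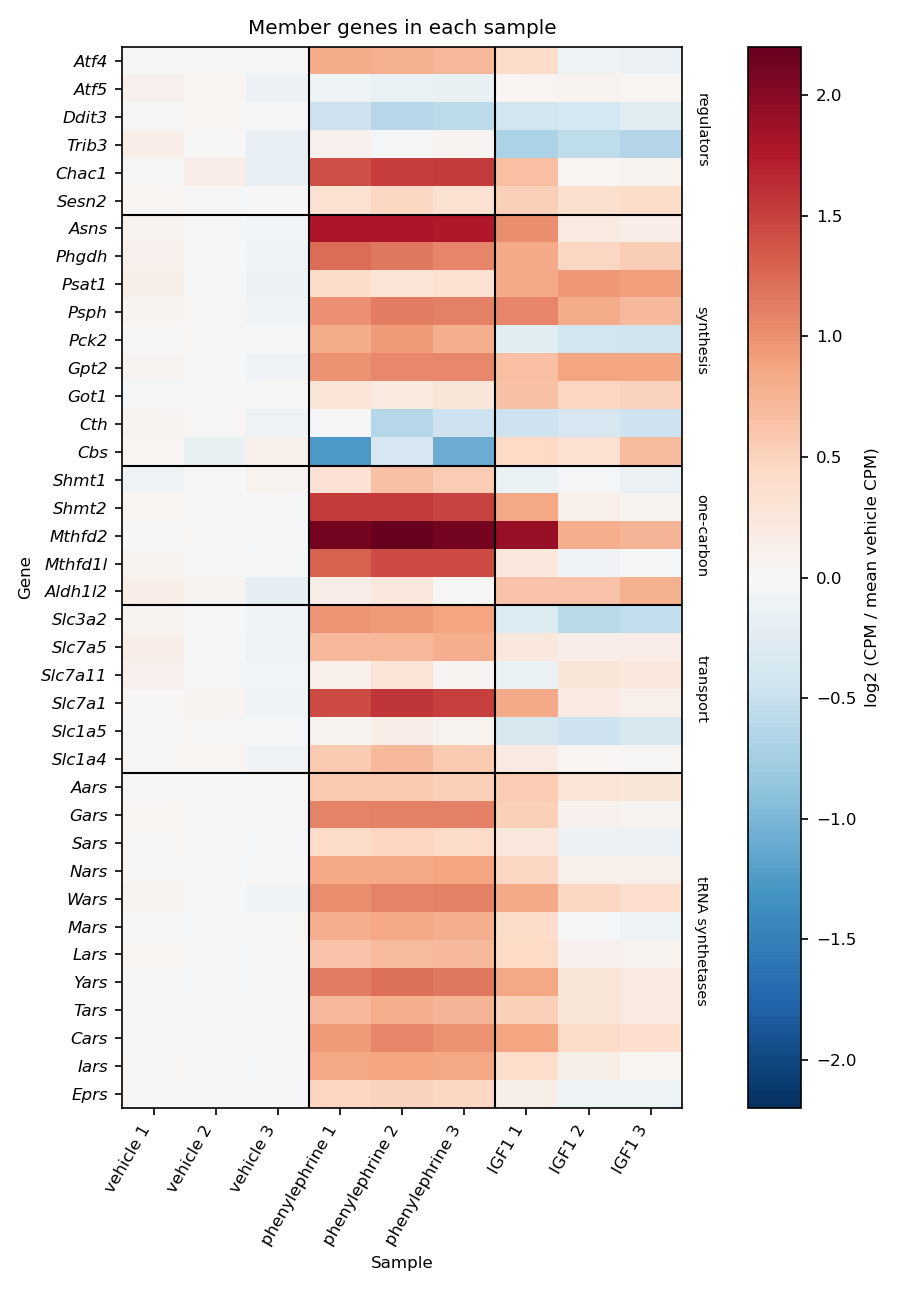
Level of each of the 38 genes (rows, in 5 groups by role) in each of the 9 samples (columns), as log2 of CPM over the mean vehicle CPM. Red fills most rows in the 3 phenylephrine samples, and IGF1 replicate 1 is redder than IGF1 replicates 2 and 3 for most tRNA synthetases.

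Because many of these genes respond to ATF4 in other settings, their promoters are shown first. Control by ATF4 was not tested in these cells. ATF4 with a C/EBP partner binds the C/EBP-ATF response element, searched here as TGATGNAA on both strands (its reverse complement is TTNCATCA). RefSeq promoters of the GRCr8 build, 250 bases before to 50 after the start, matched 34 of the 38 genes as a single entry. Aldh1l2, Slc1a5, Gars and Slc3a2 were not searched. The motif was found in 13 of the 34 (38.2%), against 1332 of 33469 promoters in all (3.98%). The list was drawn up around ATF4, so a higher share is no independent finding. The 33469 were not limited to genes with a single entry or to genes that passed the filter on counts. By role, it was found in 7 of 11 tRNA synthetase genes, 2 of 4 transporter genes, 2 of 6 genes of regulators and stress effectors, 2 of 9 synthesis genes and 0 of 4 one-carbon genes. Genes searched without a match included Atf4, Asns, Phgdh, Psph, Shmt2, Mthfd2 and Mthfd1l, which all rose with phenylephrine (below). Of the 14 matches, 10 read TGATGCAA, 2 TGATGAAA and 2 TGATGTAA, and 11 lay before the start. A match describes the letters in this window and shows no binding.

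The sequences below give 9 of the matched promoters, with the motif in capitals, 5′ to 3′ on the gene's strand. Chac1 (chr3:126795881-126796130, plus strand) and Trib3 (chr3:161275534-161275783, minus strand) are shown over the 250 bases before the start, since both carry the motif while their levels differed in the data. The others are shown around the motif: Slc7a1 (chr12:11664432-11664487, plus strand), Aars (chr19:55908344-55908403, plus strand), Mars (chr7:65023754-65023796, minus strand), Tars (chr2:62114803-62114855, minus strand), Iars (chr17:15193653-15193702, minus strand), Got1 (chr1:252330005-252330064, minus strand) and Pck2 (chr15:32997603-32997647, plus strand). RefSeq lists the 4 synthetase genes among them as Aars1, Mars1, Tars1 and Iars1.
Chac1: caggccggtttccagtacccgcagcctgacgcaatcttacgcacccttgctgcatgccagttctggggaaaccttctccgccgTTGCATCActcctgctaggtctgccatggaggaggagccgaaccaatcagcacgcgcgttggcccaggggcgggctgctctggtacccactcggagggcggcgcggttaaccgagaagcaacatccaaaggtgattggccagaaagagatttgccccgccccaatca
Trib3: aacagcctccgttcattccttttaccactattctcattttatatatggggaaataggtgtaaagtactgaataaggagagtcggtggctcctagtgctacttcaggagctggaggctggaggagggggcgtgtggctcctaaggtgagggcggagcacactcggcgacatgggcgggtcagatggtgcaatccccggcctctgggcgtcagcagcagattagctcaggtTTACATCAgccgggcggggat
Slc7a1: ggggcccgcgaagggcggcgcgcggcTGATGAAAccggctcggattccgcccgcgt
Aars: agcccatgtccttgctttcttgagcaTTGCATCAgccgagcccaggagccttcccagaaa
Mars: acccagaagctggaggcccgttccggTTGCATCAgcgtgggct
Tars: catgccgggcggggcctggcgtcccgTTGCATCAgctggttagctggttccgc
Iars: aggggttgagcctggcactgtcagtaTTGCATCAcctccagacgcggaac
Got1: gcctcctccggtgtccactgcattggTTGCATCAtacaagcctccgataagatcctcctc
Pck2: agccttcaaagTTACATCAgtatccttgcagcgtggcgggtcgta

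In Mars, Tars, Iars and Trib3 the motif ended 10, 20, 17 and 14 bases before the start. In Chac1 and Got1 it ended 160 bases before the start, and in Pck2 232 bases. The TGATGAAA of Slc7a1 stood on the gene's own strand, ending 23 bases before the start.

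**Figure D2:**
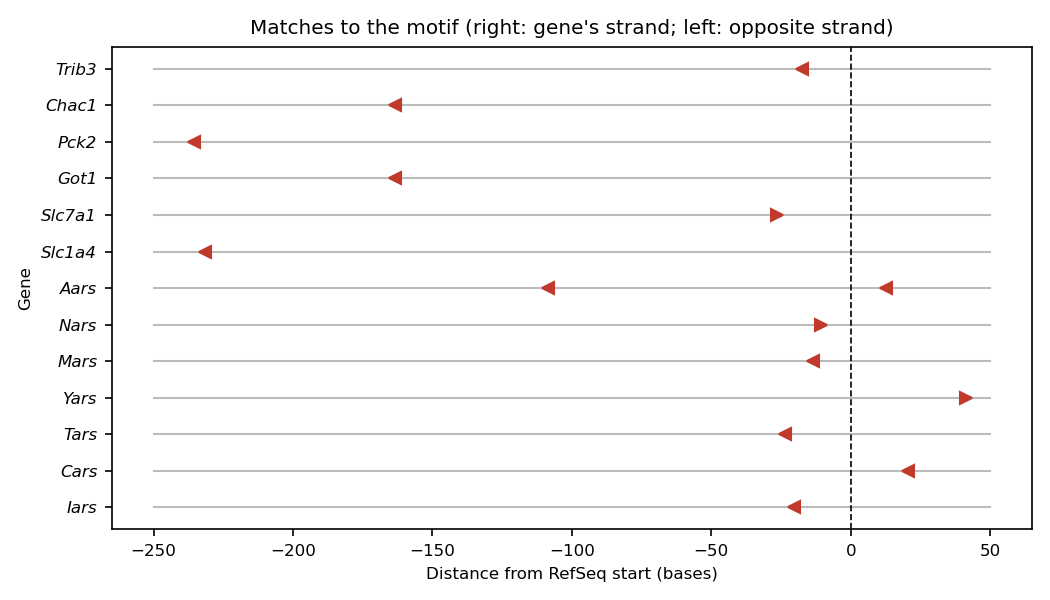
Position of each match to the motif in the 13 promoters that held one, as distance in bases from the RefSeq start (dashed line), with arrowheads to the right for the gene's strand and to the left for the other strand. Each of the 7 tRNA synthetase genes has a match within 50 bases of the start, on the downstream side in Aars, Yars and Cars, and Aars has another one 105 bases upstream.

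Phenylephrine against vehicle addressed how alpha1-adrenergic growth stimulation acts on these genes. Of the 38, 30 rose and 2 fell with phenylephrine (edgeR adjusted p under 0.05), so 78.9% rose where 27.9% of all genes tested were higher and 28.9% lower. Their median log2 fold change was 0.76, against -0.03 over all genes tested. Without IGF1 replicate 1, 30 rose and 3 fell, where 31.2% of all genes were higher and 32.2% lower. All 12 tRNA synthetase genes rose, as did 7 of 9 synthesis genes, 4 of 5 one-carbon genes, 4 of 6 transporter genes and 3 of 6 genes of regulators and stress effectors.

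The gene of the regulator itself rose. Atf4 stood at 317, 314 and 315 CPM in the vehicle samples and at 554, 541 and 526 CPM with phenylephrine. The groups did not overlap, and the rise was 1.71-fold (log2 0.78, SE 0.14, edgeR adjusted p = 0.0019). Chac1, an enzyme that breaks down glutathione, had 12.1, 13.3 and 10.7 CPM with vehicle and 32.3, 34.5 and 34.9 CPM with phenylephrine. It rose 2.83-fold (SE 0.15 on the log2 scale, adjusted p = 1.1e-05). Sesn2, a leucine-sensing inhibitor of mTORC1, rose 1.30-fold, from 58.7 to 61.0 CPM with vehicle to 75.3 to 81.2 CPM with phenylephrine (adjusted p = 1.8e-05).

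Not all stress effectors rose. Ddit3, the gene of the stress factor CHOP, had 44.4, 46.0 and 43.1 CPM with vehicle and 32.6, 28.9 and 29.8 CPM with phenylephrine. Every phenylephrine sample lay below every vehicle sample, a 1.46-fold fall (log2 -0.55, SE 0.06, adjusted p = 2.2e-06). Trib3, a pseudokinase that binds ATF4 and AKT, had 24.8, 22.7 and 19.8 CPM with vehicle and 23.9, 22.1 and 23.4 CPM with phenylephrine, and these overlapped (log2 0.05, SE 0.08, adjusted p = 0.66). Atf5, a relative of ATF4, was 1.10-fold lower (log2 -0.13, SE 0.05, adjusted p = 0.044), with vehicle values of 74.9 to 87.5 CPM overlapping the 73.9 to 76.9 CPM of phenylephrine. That call was lost without vehicle replicate 1 or 2 (adjusted p = 0.15 and 0.10) or any 1 phenylephrine sample (0.059 to 0.13), with log2 values of -0.15 to -0.10. It was also lost in DESeq2 (0.085), in limma-voom (0.063) and with RLE factors (0.056). The log2 value was -0.21 without vehicle replicate 3.

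Among synthesis enzymes, Asns, which makes asparagine, had the largest rise. It stood at 68.5, 64.3 and 62.9 CPM with vehicle and at 225, 223 and 221 CPM with phenylephrine, a 3.42-fold rise (log2 1.77, SE 0.24, adjusted p = 8.9e-04). The pathway that makes serine from a glycolytic intermediate runs through Phgdh, Psat1 and Psph. Phgdh, its first enzyme, rose 2.23-fold, from 58.2, 54.4 and 51.7 to 129, 122 and 115 CPM (log2 1.15, SE 0.09, adjusted p = 1.4e-06). Psph, its last, rose 2.11-fold (adjusted p = 4.5e-08). Psat1, the middle enzyme, rose 1.28-fold, from 25.3, 22.8 and 21.3 to 30.8, 28.6 and 29.2 CPM (log2 0.35, SE 0.07, adjusted p = 4.5e-04). Gpt2, a mitochondrial alanine aminotransferase, rose 2.05-fold, Pck2, the mitochondrial form of PEP carboxykinase, 1.80-fold, and Got1, the cytosolic aspartate aminotransferase, 1.20-fold (adjusted p = 1.3e-07, 1.3e-08 and 2.5e-04). The rises of Psat1 and Got1 no longer passed when samples were scaled by library size only (log2 0.16 and 0.07, adjusted p = 0.11 and 0.12).

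The genes that turn homocysteine into cysteine did not rise. Cth, which releases cysteine, had 4.79, 4.69 and 4.26 CPM with vehicle and 4.46, 2.97 and 3.36 CPM with phenylephrine (log2 -0.35, SE 0.15, adjusted p = 0.067). It passed without IGF1 replicate 1 (adjusted p = 0.043), without phenylephrine replicate 1 (log2 -0.53, 0.010) and when samples were scaled by library size alone (log2 -0.54, 0.010). Cbs, the step before it, was near the limit of these libraries at 5 to 32 reads per sample (log2 -0.84, SE 0.40, adjusted p = 0.086), and passed only with scaling by library size among the settings tried (log2 -1.03, adjusted p = 0.033).

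Mitochondrial one-carbon enzymes, which take carbon from serine to formate, included the gene with the largest change. Mthfd2, the mitochondrial dehydrogenase of this route, stood at 41.3, 42.0 and 40.8 CPM with vehicle and at 178, 190.0 and 179 CPM with phenylephrine. Its 4.41-fold rise (log2 2.14, SE 0.33, adjusted p = 0.0017) was the largest of the 38. Shmt2, which splits serine in mitochondria, rose 2.87-fold, from 73.8, 70.2 and 70.3 to 207, 208 and 199 CPM (log2 1.52, SE 0.21, adjusted p = 8.9e-04). Mthfd1l, which releases formate, rose 2.63-fold, from 23.7, 22.4 and 22.5 to 56.0, 62.2 and 62.3 CPM (log2 1.39, SE 0.07, adjusted p = 1.6e-09). The cytosolic Shmt1 rose 1.43-fold (log2 0.51, SE 0.09, adjusted p = 1.8e-04). Aldh1l2, a mitochondrial enzyme that oxidizes formyl-tetrahydrofolate, had overlapping values of 8.12 to 10.5 CPM with vehicle and 9.66 to 11.1 CPM with phenylephrine (log2 0.14, SE 0.10, adjusted p = 0.27).

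Among transporters, Slc7a1, a carrier of arginine and lysine, rose most. It had 68.8, 70.3 and 63.0 CPM with vehicle and 181, 200.4 and 191 CPM with phenylephrine, a 2.83-fold rise (SE 0.20 on the log2 scale, adjusted p = 6.9e-04). Slc3a2 and Slc7a5 encode the heavy and light chains of the carrier LAT1, which imports leucine and other large amino acids. Slc3a2 rose 1.90-fold, from 234, 226 and 214 to 439, 431 and 409 CPM (log2 0.93, SE 0.07, adjusted p = 8.8e-08), and Slc7a5 1.68-fold (adjusted p = 7.3e-08). Slc1a4, a carrier of alanine and serine, rose 1.53-fold (adjusted p = 3.3e-07). The glutamine carrier Slc1a5 and the cystine carrier Slc7a11 did not pass (log2 0.09, SE 0.08, and 0.16, SE 0.12; adjusted p = 0.30 and 0.26).

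All 12 cytosolic tRNA synthetase genes, whose enzymes load amino acids onto tRNA, rose with phenylephrine, by 1.36-fold to 2.24-fold with a median log2 fold change of 0.83. The largest rises were those of Yars (2.24-fold), Gars (2.15-fold), Wars (2.11-fold) and Cars (2.00-fold), for tyrosine, glycine, tryptophan and cysteine. Gars moved from 176, 168 and 167 CPM to 365, 368 and 368 CPM (log2 1.11, SE 0.11, adjusted p = 4.1e-05). Iars (isoleucine), Nars (asparagine), Mars (methionine), Tars (threonine) and Lars (leucine) rose 1.81-fold, 1.80-fold, 1.76-fold, 1.68-fold and 1.60-fold. The smallest rises were those of Aars (alanine, 1.47-fold), Eprs (glutamate and proline, 1.39-fold) and Sars (serine, 1.36-fold). Sars had 186, 184 and 179 CPM with vehicle and 244, 255 and 245 CPM with phenylephrine (log2 0.44, SE 0.08, adjusted p = 0.0010). In no synthetase gene did the phenylephrine and vehicle samples overlap, but how often this held over all genes was not counted. Of the 28 genes that rose and had a promoter entry, 12 held the motif shown above (42.9%), near the 38.2% of all 34 searched. So did 1 of the 4 that passed in neither direction, Trib3, and 0 of the 2 that fell. With IGF1 against vehicle, the motif was in 6 of 15 genes that rose, 2 of 4 that fell and 5 of 15 that did neither. A link between the motif and the changes was not tested.

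**Figure D3:**
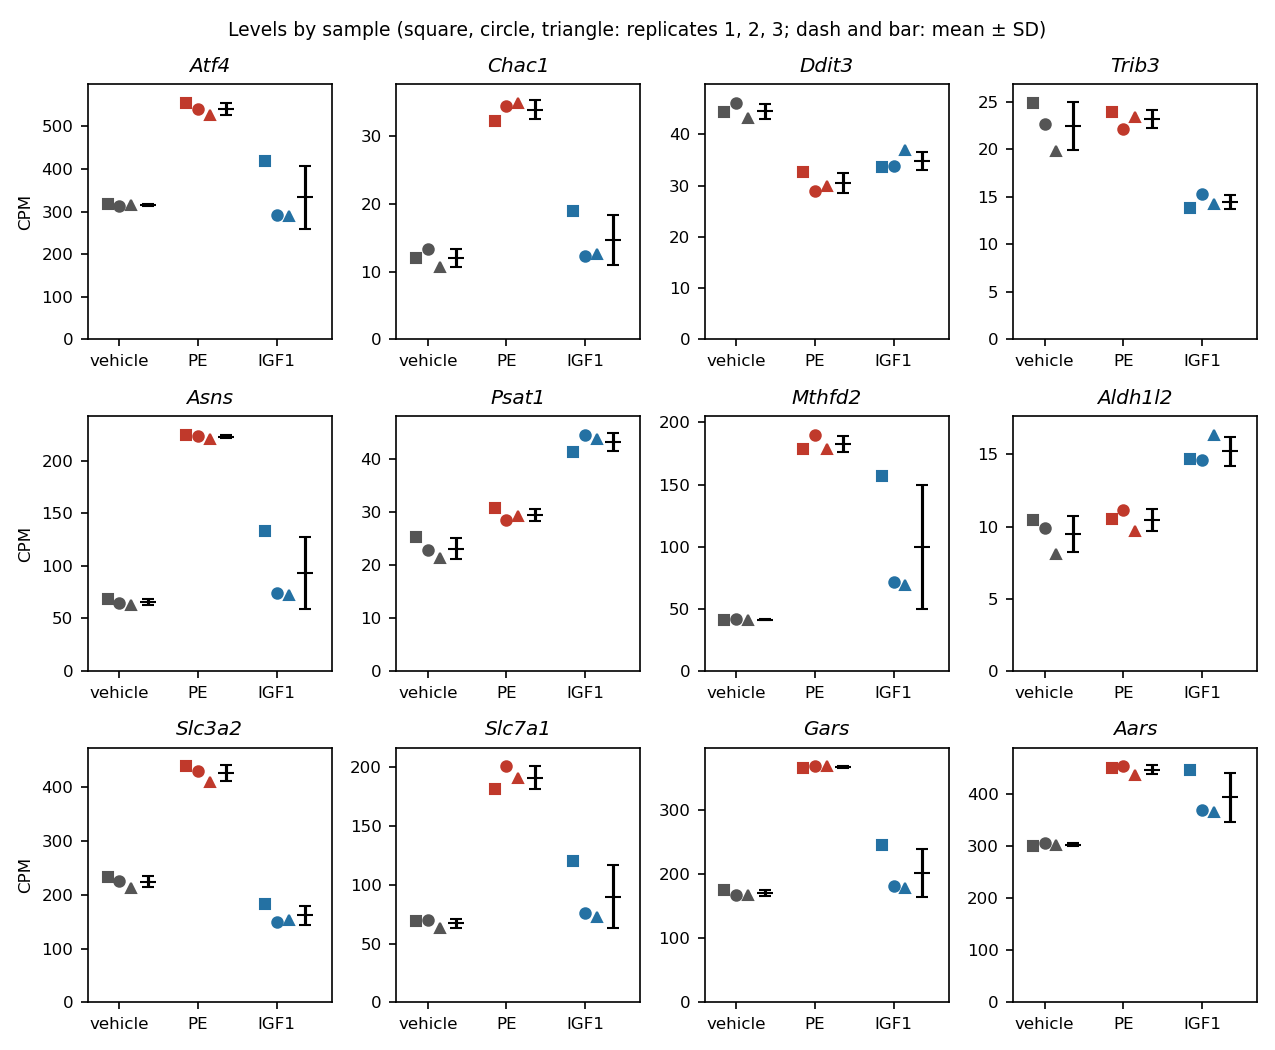
Levels in CPM (vertical axis, from 0) of 12 of the genes in every sample of the vehicle, phenylephrine (PE) and IGF1 groups, with mean ± SD beside them (n = 3). Asns, Mthfd2, Slc7a1 and Gars are highest in all 3 phenylephrine samples with IGF1 replicate 1 (square) between them and the other IGF1 samples, while Psat1 and Aldh1l2 are highest in the IGF1 samples.

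The effect of the growth factor was read from IGF1 against vehicle. Of the 38 genes, 16 rose and 6 fell with IGF1, where 24.7% of all genes tested were higher and 23.4% lower. The median log2 fold change was 0.24, against -0.0018 over all genes. Leaving out IGF1 replicate 1, 21 rose and 9 fell (27.4% and 26.6% of all genes), and the median was 0.10. The rises were mostly in synthesis enzymes (5 of 9 genes, and 6 without that sample) and tRNA synthetases (7 of 12, and 9).

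The enzymes that make serine rose. Psat1 stood at 25.3, 22.8 and 21.3 CPM with vehicle and at 41.4, 44.6 and 43.9 CPM with IGF1, a 1.87-fold rise (log2 0.91, SE 0.07, adjusted p = 5.0e-08). Psph rose 1.83-fold, from 19.0, 18.5 and 17.3 to 38.2, 32.1 and 30.1 CPM (adjusted p = 5.3e-07), and Phgdh 1.53-fold, from 51.7 to 58.2 CPM with vehicle to 97.9, 75.4 and 79.5 CPM (adjusted p = 2.1e-04). With IGF1 replicate 1 left out, the rises of Psat1, Psph and Phgdh were 1.91-fold, 1.70-fold and 1.41-fold, and each still passed. Gpt2 rose 1.75-fold and Got1 1.45-fold (adjusted p = 2.1e-06 and 3.2e-07), and 1.83-fold and 1.40-fold without that sample.

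Aldh1l2 also rose. It had 10.5, 9.87 and 8.12 CPM with vehicle and 14.7, 14.6 and 16.3 CPM with IGF1, a 1.61-fold rise without overlap (log2 0.68, SE 0.10, adjusted p = 5.7e-05). Sesn2 rose 1.34-fold, with 85.4, 76.0 and 78.8 CPM under IGF1 (log2 0.43, adjusted p = 7.3e-06). Leaving out IGF1 replicate 1, Aldh1l2 rose by log2 0.71 and Sesn2 by 0.38 (adjusted p = 7.9e-08 and 5.0e-10). Mthfd2 had 157, 71.9 and 69.2 CPM with IGF1, so that replicate 1 lay 2.23-fold above the other IGF1 samples. Its rise over vehicle was 2.39-fold (log2 1.26, SE 0.33, adjusted p = 0.020), and 1.71-fold without IGF1 replicate 1 (log2 0.77, SE 0.04, adjusted p = 1.6e-19). With that sample kept, its call was lost without vehicle replicate 1, 2 or 3 (adjusted p = 0.065, 0.061 and 0.064). Fitting only the compared groups also lost the call of Mthfd2 (0.064).

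Other genes fell with IGF1. Trib3 had 13.9, 15.3 and 14.3 CPM, all below the vehicle samples, a 1.55-fold fall (log2 -0.63, SE 0.08, adjusted p = 1.9e-05). Slc3a2 had 183, 149.6 and 154 CPM, against 214 to 234 CPM with vehicle (1.38-fold lower, log2 -0.47, SE 0.07, adjusted p = 6.0e-05). Pck2 had 45.5, 40.3 and 39.8 CPM against 53.4, 54.5 and 52.9 CPM with vehicle (1.28-fold lower, adjusted p = 1.0e-04). Slc1a5 was 1.31-fold lower, with 9.87, 9.24 and 9.83 CPM, and Ddit3 1.28-fold lower, with 33.6, 33.9 and 36.9 CPM (adjusted p = 7.1e-04 and 1.7e-04). The falls of Trib3, Slc3a2, Pck2, Slc1a5 and Ddit3 passed under every alternative tried, with log2 values of -0.60, -0.56, -0.42, -0.40 and -0.33 without IGF1 replicate 1. Cth was 1.34-fold lower (adjusted p = 0.034), but not past the threshold without vehicle replicate 1 or 2 or IGF1 replicate 3 (0.095, 0.080 and 0.078). It passed without IGF1 replicate 1 (0.036).

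Atf4 had 418, 292 and 289 CPM with IGF1, on both sides of the vehicle values of 314 to 317 CPM (log2 0.08, SE 0.13, adjusted p = 0.67). It fell slightly without IGF1 replicate 1 (log2 -0.12, SE 0.03, adjusted p = 0.0015). Asns had 133, 74.5 and 72.4 CPM, with no overlap with vehicle (log2 0.51, SE 0.24, adjusted p = 0.13), and rose 1.13-fold without IGF1 replicate 1 (log2 0.17, SE 0.04, adjusted p = 2.9e-04). Asns also passed in limma-voom (log2 0.43, adjusted p = 0.0498). Slc7a1, at 120.3, 76.0 and 72.4 CPM, gave log2 0.41 (SE 0.20, adjusted p = 0.14), and 0.14 without that sample (adjusted p = 0.0094). Shmt2, at 128, 76.9 and 74.7 CPM, did not pass either way (log2 0.38 and 0.09, adjusted p = 0.18 and 0.056). Chac1, Mthfd1l, Shmt1, Slc1a4 and Atf5 did not pass with or without it, with log2 values of 0.27, 0.05, -0.10, 0.09 and 0.05 over all samples and 0.06, -0.05, -0.08, 0.03 and 0.06 without it. Cbs, at few reads, did not pass either (adjusted p = 0.23 and 0.30). Slc7a11 gave log2 0.14 (adjusted p = 0.35), and 0.25 without that sample (adjusted p = 0.040).

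Among tRNA synthetases, Cars, Wars, Aars and Tars rose 1.48-fold, 1.47-fold, 1.30-fold and 1.26-fold with IGF1 (adjusted p = 0.0057, 0.0027, 2.2e-04 and 0.0010), and these calls held under every alternative. Over IGF1 replicates 2 and 3 alone the rises were 1.32-fold, 1.33-fold, 1.21-fold and 1.18-fold. Nars, Lars and Iars rose 1.18-fold, 1.16-fold and 1.14-fold (log2 0.24, 0.22 and 0.19, adjusted p = 0.026, 0.047 and 0.037), and by log2 0.11, 0.09 and 0.08 without IGF1 replicate 1 (0.0031, 0.024 and 0.036). Each of the calls of Nars, Lars and Iars was lost when any 1 vehicle sample was left out (adjusted p = 0.068 to 0.084, 0.086 to 0.13 and 0.087 to 0.13). Each was also lost when only the compared groups were fitted (0.059, 0.082 and 0.080). Those of Lars and Iars were lost without any 1 phenylephrine sample (0.061 to 0.062 and 0.053 to 0.056) and with scaling by library size only (0.095 and 0.12). That of Lars was lost with no filter (0.063). Yars and Gars had log2 values of 0.47 and 0.24 (adjusted p = 0.054 and 0.10), and 0.24 and 0.08 without IGF1 replicate 1 (6.3e-07 and 0.034). Both also passed without IGF1 replicate 3 (log2 0.58 and 0.32, adjusted p = 0.022 and 0.029) and in DESeq2 (0.017 and 0.020). Yars alone passed in limma-voom (0.011), with RLE factors (0.0498), with scaling by library size only (0.023) and with a stricter filter (0.048). Mars, Sars and Eprs did not pass (log2 0.11, 0.00 and -0.03), nor did Mars without IGF1 replicate 1 (log2 -0.06). Sars and Eprs fell when IGF1 replicate 1 was left out (log2 -0.13 and -0.11, adjusted p = 0.0010 and 0.0025). Eprs also fell with scaling by library size only (log2 -0.11, adjusted p = 0.043). Slc7a5 was 1.13-fold higher with IGF1 (adjusted p = 0.025), a call lost without vehicle replicate 2 or 3 (log2 0.14 and 0.11, adjusted p = 0.11 and 0.15) but not without IGF1 replicate 1 (0.023). It was also lost with scaling by library size only (log2 0.09, adjusted p = 0.28) and when only the compared groups were fitted (0.057).

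**Figure D4:**
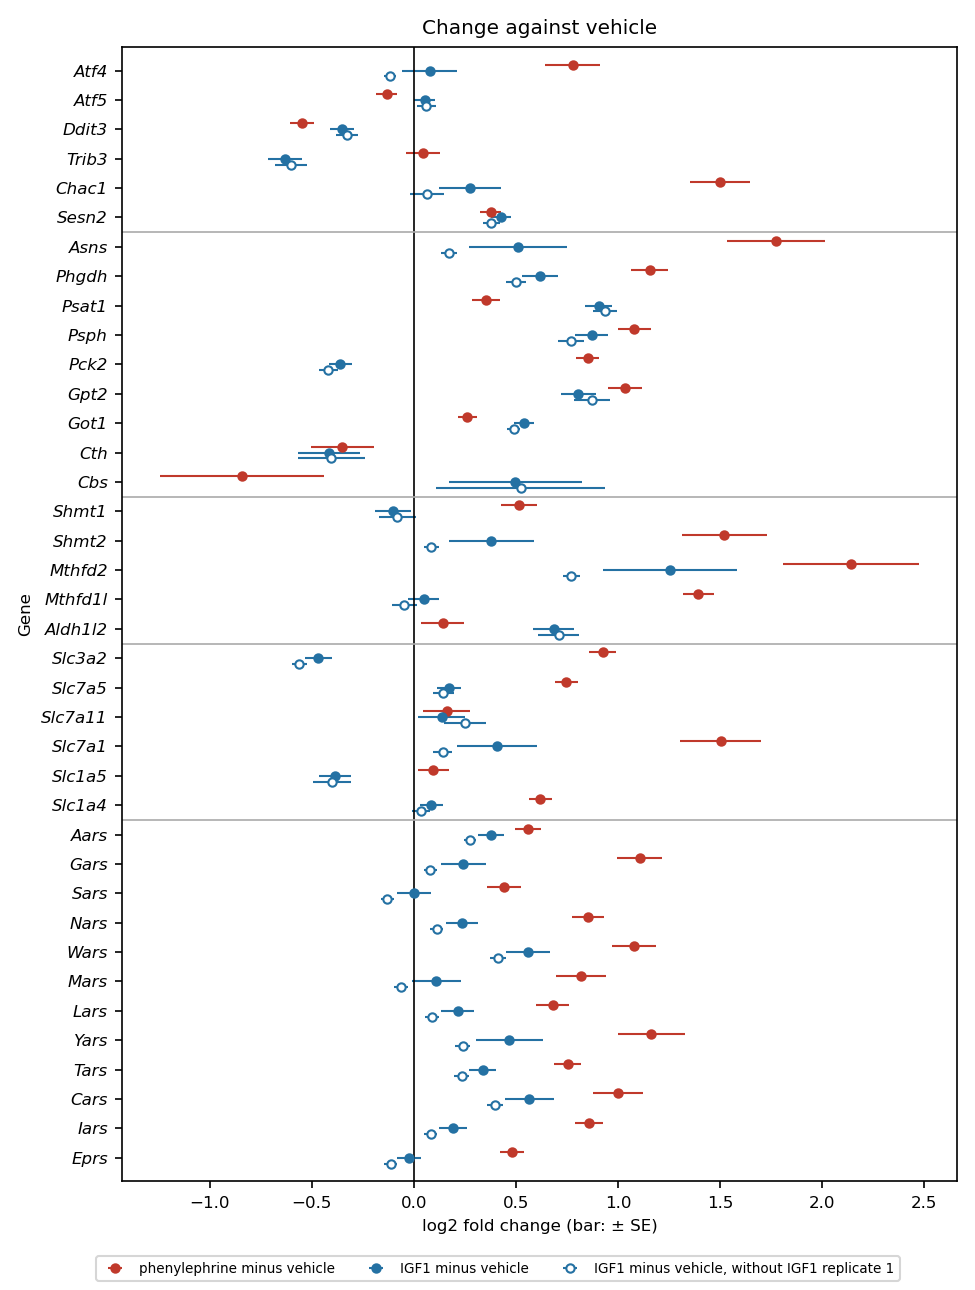
log2 fold change of each gene against vehicle (horizontal axis, bars ± SE) with phenylephrine, with IGF1, and with IGF1 when its replicate 1 is left out (open points). The phenylephrine points of all 12 tRNA synthetases lie to the right of 0, and Pck2 and Slc3a2 lie to the right with phenylephrine and to the left with IGF1.

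Phenylephrine and IGF1 were then compared directly, since both comparisons above share the vehicle samples. Of the 38 genes, 28 were higher and 6 lower with phenylephrine than with IGF1, where 27.1% of all genes tested were higher and 27.1% lower. Without IGF1 replicate 1 the counts were again 28 and 6 (30.4% and 30.2% of all genes). The median log2 difference was 0.52 over the 38 genes, and 0.60 without that sample. Slc3a2 (log2 1.40), Mthfd1l (1.35), Asns (1.26), Chac1 (1.22), Pck2 (1.21), Shmt2 (1.14) and Slc7a1 (1.10) were higher with phenylephrine by over 2-fold. Against IGF1 replicates 2 and 3 alone the differences of Slc3a2, Mthfd1l, Asns, Chac1, Pck2, Shmt2 and Slc7a1 were log2 1.49, 1.44, 1.60, 1.44, 1.27, 1.43 and 1.36. Pck2 and Slc3a2 moved in opposite directions against vehicle, and the direct difference had an SE of 0.06 for Pck2 (adjusted p = 2.2e-10) and 0.07 for Slc3a2 (adjusted p = 1.4e-09).

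Atf4 was 1.62-fold higher with phenylephrine than with IGF1 (adjusted p = 0.0034) and Trib3 1.60-fold higher (adjusted p = 8.5e-06), with log2 differences of 0.89 and 0.65 without IGF1 replicate 1. Every tRNA synthetase gene was higher with phenylephrine, from 1.14-fold for Aars to 1.82-fold for Gars, and by log2 0.28 for Aars to 1.03 for Gars without that sample. The call of Aars was lost without phenylephrine replicate 1 or 2 or IGF1 replicate 2 or 3 (log2 0.13 to 0.18, adjusted p = 0.072 to 0.13). It was also lost when library size alone set the scale (0.16) and when only the compared groups were fitted (0.066). Without IGF1 replicate 1 its log2 difference was 0.28 (adjusted p = 1.1e-10). That of Cars (1.35-fold) was lost without IGF1 replicate 2 (log2 0.36, adjusted p = 0.064). Those of Psph (1.16-fold) and Gpt2 (1.17-fold) were lost without phenylephrine replicate 2 or 3 (log2 0.19 and 0.20, adjusted p = 0.11 and 0.098; log2 0.22 and 0.22, 0.080 and 0.084). The call of Psph was also lost without vehicle replicate 1 or 2 (0.0501 and 0.054) or IGF1 replicate 2 or 3 (log2 0.18 and 0.13, adjusted p = 0.11 and 0.19). That of Gpt2 was lost without IGF1 replicate 1 (0.099), where Psph passed (log2 0.31, adjusted p = 2.4e-05). Scaling by library size only lost the calls of Psph and Gpt2 (0.24 and 0.35), and fitting only the compared groups lost that of Psph (0.069).

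Lower with phenylephrine than with IGF1 were Psat1 (1.47-fold), Aldh1l2 (1.46-fold), Got1 (1.21-fold), Atf5 (1.14-fold), Ddit3 (1.14-fold) and, at few reads, Cbs (2.53-fold). Psat1, Aldh1l2, Got1, Atf5, Ddit3 and Cbs were also lower without IGF1 replicate 1 (log2 -0.58, -0.57, -0.23, -0.19, -0.22 and -1.37). For Psat1 the difference was log2 -0.55 (SE 0.07, adjusted p = 5.7e-06) and for Aldh1l2 -0.54 (SE 0.10, adjusted p = 4.1e-04). That of Ddit3 was lost without phenylephrine replicate 2 or IGF1 replicate 3 (log2 -0.16 and -0.15, adjusted p = 0.067 and 0.070). Mthfd2 missed the threshold in edgeR (log2 0.88, SE 0.32, adjusted p = 0.057) and passed it in DESeq2 (0.021) and limma-voom (0.0015). It was 2.59-fold higher with phenylephrine without IGF1 replicate 1 (log2 1.37, SE 0.04, adjusted p = 4.5e-29). Sesn2, Cth and Slc7a11 passed neither way (log2 -0.05, SE 0.05; 0.07, SE 0.16; and 0.02, SE 0.12), nor without IGF1 replicate 1 (log2 -0.0021, 0.05 and -0.09). With scaling by library size only, Sesn2 was lower with phenylephrine (log2 -0.16, adjusted p = 0.012).

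Genes upstream of ATF4 were examined from a separate list of the eIF2 kinases, eIF2 alpha and its phosphatase. With phenylephrine, 4 of 8 rose and 2 fell, where 27.9% of all genes tested were higher and 28.9% lower. Ppp1r15a, the stress-induced phosphatase subunit GADD34, rose from 74.5, 76.5 and 78.3 to 140.2, 142 and 137 CPM (log2 0.87, adjusted p = 0.022), Ppp1cb rose (log2 0.70) and so did Eif2s1 (log2 0.39). The kinase genes Eif2ak4 (GCN2, the sensor of uncharged tRNA) and Eif2ak3 (PERK, the sensor of the endoplasmic reticulum) fell (log2 -0.33 and -0.29, adjusted p = 1.3e-04 and 1.7e-04). With IGF1, 2 rose, Ppp1cb and Eif2s1 (log2 0.35 and 0.25), and 1 fell, Eif2ak3 (log2 -0.37), against 24.7% and 23.4% of all genes. Leaving out IGF1 replicate 1, 2 rose and 2 fell, with Eif2ak3 at log2 -0.36. Ppp1r15a had 79.2, 41.5 and 43.0 CPM with IGF1 (log2 -0.50, adjusted p = 0.15), and fell without replicate 1 (log2 -0.85, adjusted p = 1.0e-20).

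Of 14 tested genes of a list of other stress targets of ATF4 and its partners, 5 rose and 4 fell with phenylephrine, near the 27.9% higher and 28.9% lower among all genes tested. The stress factor Atf3, the cytokine Gdf15 and the translation repressor Eif4ebp1 rose (log2 2.04, 0.86 and 0.83), and Map1lc3b, Herpud1 and Vegfa fell (log2 -0.49, -0.23 and -0.22). With IGF1, 1 rose, Ddit4 (log2 0.68), and 6 fell, most of all Sqstm1, Cebpb and Herpud1 (log2 -1.09, -0.98 and -0.61), against 24.7% and 23.4% of all genes. Sqstm1, an autophagy receptor, went from a mean of 801 ± 17.3 to 376 ± 19.6 CPM (SD, n = 3). When IGF1 replicate 1 was left out, 1 rose and 10 fell with IGF1, where 27.4% of all genes were higher and 26.6% lower. Directly compared, 10 of the 14 were higher and 1 lower with phenylephrine than with IGF1 (27.1% and 27.1% of all genes), and 11 and 1 without that sample.

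The remaining cytosolic synthetase genes and the genes of their scaffold proteins were examined as a further list. Of 11, 9 rose and 1 fell with phenylephrine, with a median log2 fold change of 0.47, where 27.9% of all genes were higher and 28.9% lower. Farsb (log2 0.79), Aimp1 (0.59) and Rars (0.56) led, and the glutamine enzyme Qars fell (log2 -0.28, adjusted p = 1.4e-05). With IGF1, 4 rose and 1 fell, with a median of 0.10, and without IGF1 replicate 1, 3 rose and 2 fell, with a median of 0.045 (24.7% and 23.4% of all genes over all samples). Of the 15 tested genes of mitochondrial synthetases, which serve translation inside mitochondria, 5 rose and 5 fell with phenylephrine (median -0.02), near the share of all genes. With IGF1, 10 rose and 0 fell (median 0.21), and without IGF1 replicate 1 again 10 and 0 (median 0.23). Cars2 went from 21.3, 18.9 and 20.1 CPM with vehicle to 11.8, 10.6 and 11.3 CPM with phenylephrine and 22.4, 24.0 and 24.9 CPM with IGF1 (log2 -0.84 and 0.24, adjusted p = 3.2e-07 and 0.012). Nars2 rose most with IGF1 (log2 0.50, adjusted p = 2.8e-04). Without IGF1 replicate 1, Cars2 and Nars2 rose by log2 0.28 and 0.53 with IGF1. Directly compared, 10 of the 15 mitochondrial genes were lower and 3 higher with phenylephrine than with IGF1, and 9 and 2 without IGF1 replicate 1 (27.1% and 27.1% of all genes over all samples). Of the other 11 cytosolic and scaffold genes, 8 were higher and 1 lower, and 9 and 1 without that sample. The differences between these lists were not tested.

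**Figure D5:**
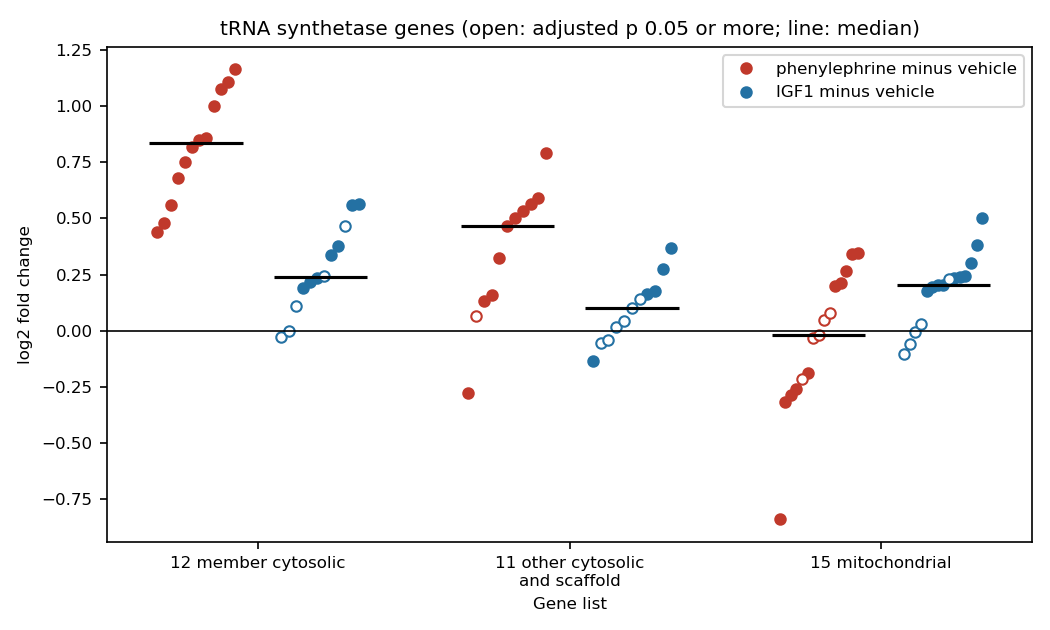
log2 fold change against vehicle (vertical axis) of the 12 cytosolic tRNA synthetases, 11 other cytosolic or scaffold genes and 15 mitochondrial synthetases, with each point a gene and each line a median. The phenylephrine medians are 0.83, 0.47 and -0.02, and the IGF1 medians 0.24, 0.10 and 0.21, or 0.10, 0.045 and 0.23 without IGF1 replicate 1 (not drawn).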

How the data were processed

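Read counts per gene of 9 samples, 3 per group, were analysed. The submitters' processing notes name STAR, HTSeq, DESeq and the build rn5. Versions, roles and the use of strand are not given in the sources used here. The deposited values are raw whole-number counts in 17327 rows with no normalization. How reads shared with near-identical copies or overlapping genes were treated is not given, so such genes may be miscounted. No row held unassigned reads. Genes were filtered with filterByExpr of edgeR 4.0.16 (minimum count 10, minimum total 15), scaled by the trimmed mean of M-values and given a quasi-likelihood fit, robust setting, with group as its 1 term and all 9 samples. P-values of the F test were adjusted by Benjamini-Hochberg over 11873 genes, with a threshold of 0.05. An SE is the size of a log2 change divided by the root of its F value, which holds the spread of all samples. R 4.3.3 was used, and the fit was tested on simulated data. Alternatives were DESeq2 1.42.0, limma-voom (limma 3.58.1), other scalings, filters and thresholds, the compared groups alone, the replicate number as a block, and leaving out each sample. The members, lists and the naming rule (all members, plus up to 3 highest and 3 lowest called genes of each related list) were chosen with earlier results of these data known. Some symbols are older names matched to RefSeq GRCr8 for promoters only. Correlations gave no sign that replicate numbers pair the samples, but with 3 samples per group a small shared effect could be missed.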

Additional observations from a re-analysis of the deposited data

How the results depend on the processing

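Over 18 alternatives, the count of genes higher with phenylephrine was 28 to 30. No called gene changed direction in that comparison over the 17 alternatives for single genes (16 for Cbs). The count of 2 genes lower with phenylephrine was 1 in DESeq2, in limma-voom, with RLE factors and at an adjusted p under 0.01, and 4 with scaling by library size only. It was 1 to 3 when a sample was left out. For IGF1 against vehicle, leaving out a sample gave 11 to 21 higher and 5 to 9 lower, and for phenylephrine against IGF1 25 to 28 and 5 to 6. Without IGF1 replicate 1 the sign of Atf4 against vehicle with IGF1 changed to -0.12 (range -0.12 to 0.16 over samples left out), and that of Sars to -0.13 (-0.13 to 0.056). The cause was not tested. Scaling by library size only moved the median of all genes with phenylephrine from -0.03 to -0.22 and the share of calls that were higher from 49.1% to 23.5%. The median of the 38 genes was then 0.57. With IGF1 the calls went from 2935 higher and 2781 lower to 2031 and 3614, and for phenylephrine against IGF1 the share of higher calls went from 49.9% to 32.8%.

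With the replicate block, the counts against vehicle were 30 and 2 with phenylephrine and 16 and 6 with IGF1, and 28 and 6 for phenylephrine against IGF1, the same as without it. Deviations of same-numbered samples correlated by -0.23 to 0.08, and 0 of 9 samples correlated best with its own number in both other groups. Depth limits Cbs alone among the 38, at 5 to 32 reads per sample.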

Other observations

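Genes of neighbouring amino acid pathways, from a list of other one-carbon, proline, glutamate and transport genes, were counted as well. Of 28 tested, 14 rose and 5 fell with phenylephrine, where 27.9% of all genes tested were higher and 28.9% lower. The largest rise was that of Slc7a3, a carrier of arginine and lysine, from 6.37, 5.94 and 5.02 CPM with vehicle to 32.7, 34.7 and 33.9 CPM with phenylephrine (log2 2.55, edgeR adjusted p = 1.9e-04). Pycr1, which makes proline in mitochondria, went from 7.26, 6.26 and 7.37 to 23.3, 21.9 and 21.1 CPM (log2 1.66, adjusted p = 1.0e-07), and Bcat1, the cytosolic branched-chain aminotransferase, from 56.4, 54.4 and 48.3 to 119, 118 and 120.4 CPM (log2 1.17, adjusted p = 3.9e-09). Mtfmt, Bcat2 and Slc36a4 fell (log2 -0.42, -0.41 and -0.30).

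With IGF1, 9 of the 28 rose and 4 fell, near the 24.7% and 23.4% of all genes, and 10 and 6 without IGF1 replicate 1 (27.4% and 26.6%). Tyms, which makes thymidylate, Mthfd2l and the mitochondrial aspartate aminotransferase Got2 rose (log2 0.49, 0.45 and 0.43), and the glutamine synthetase Glul fell from 310.1 ± 4.38 to 184 ± 10.7 CPM (SD, n = 3; log2 -0.76, adjusted p = 5.1e-09), as did Asl and Slc43a1 (log2 -0.45 and -0.41). Without IGF1 replicate 1, Tyms, Mthfd2l, Got2, Glul, Asl and Slc43a1 gave log2 0.53, 0.40, 0.39, -0.71, -0.46 and -0.39. Pycr1 and Bcat1 did not pass with IGF1 (log2 -0.02 and -0.0040, or -0.18 and -0.08 without IGF1 replicate 1) and were higher with phenylephrine than with IGF1 (log2 1.68 and 1.17, adjusted p = 8.2e-08 and 2.3e-09). Slc7a3 had a mean of 9.33 ± 4.21 CPM with IGF1, and 6.90 CPM over IGF1 replicates 2 and 3 (log2 0.66 and 0.26 against vehicle, adjusted p = 0.11 and 0.028).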
